A study of Mus musculus with 24 samples.

Results

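The growth hormone and IGF axis was followed through 9 genes in mouse liver and lung: the growth hormone receptor Ghr, the transcription factor Stat5b, the feedback inhibitors Socs2 and Cish, the repressor Bcl6, the hormone Igf1 and its carriers Igfals, Igfbp2 and Igfbp3. Every array probe annotated to these symbols was taken, which gave 15 of the 45281 probes on the array and 9 of 19053 genes with a probe of their own symbol. Female BALB/c mice received a high-fat diet (HFD) or a control diet (CD) for 16 weeks. They then had an injection of 4T1 cells, a metastatic mammary carcinoma line that arose in this strain, into the mammary fat pads, or a sham injection, and stayed on their diet. Tissue was taken 14 days later, at a labelled age of 22 weeks, and total RNA of liver and lung was hybridised to Illumina bead arrays. The 8 groups of 3 arrays each were 4T1 HFD, sham HFD, 4T1 CD and sham CD in liver and the same 4 in lung. Nothing in the labels ties each replicate to its own mouse. The p-values therefore reflect variation among these arrays only, and that variation may be technical.

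Growth hormone from the pituitary binds GHR on hepatocytes and activates the kinase JAK2, which phosphorylates STAT5b. STAT5b enters the nucleus and drives Igf1 and Igfals, and it also induces Socs2 and Cish, whose products limit the receptor's signal. BCL6 is a repressor that binds sequences overlapping those of STAT5 in mouse liver, and the pulse pattern of growth hormone sets sex-biased liver genes. Circulating IGF1 travels mostly in complexes of IGFBP3 and the acid-labile subunit encoded by Igfals, while IGFBP2 is another liver-made carrier.

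In the RefSeq annotation of GRCm38.p6, Ghr lies at chr15:3317755-3583352 and Igf1 at chr10:87858265-87937047. Igfals lies at chr17:24877844-24882011, Igfbp2 at chr1:72824480-72852474 and Igfbp3 at chr11:7206086-7215498. Stat5b lies at chr11:100780731-100859004 and Socs2 at chr10:95383903-95417321. Cish, at chr9:107296659-107302784, and Bcl6, at chr16:23965050-23988866, are the genes on which the liver results turn. Promoter windows of 250 bases before to 50 bases after a RefSeq transcription start were found for 8 of the 9 genes, 14 windows in all. The motif TTCNNNGAA, which STAT5 dimers recognise and which reads the same on both strands, was searched for in each. It was found in windows of Cish, Bcl6 and Igfals, 3 of the 8 genes, against 9.55% of all 27025 genes with a window. Of all 32851 RefSeq windows of the same length, 8.3% held it. The windows of Cish (its motifs begin at positions 1 and 12 from the start), of 2 Bcl6 starts (position -118, and positions -168, -122 and -88) and of 2 Igfals starts (position -236 and position -58) are shown because they hold the motif, with the motif in capitals. At least 2 copies were present in 0.457% of all windows. A match describes the letters only. The windows lie at chr9:107296409-107296708 (plus strand) for Cish, chr16:23988803-23989102 and chr16:23981234-23981533 (minus strand) for Bcl6, and chr17:24877594-24877893 and chr17:24877981-24878280 (plus strand) for Igfals, and each reads 5′ to 3′ along its gene.
Cish: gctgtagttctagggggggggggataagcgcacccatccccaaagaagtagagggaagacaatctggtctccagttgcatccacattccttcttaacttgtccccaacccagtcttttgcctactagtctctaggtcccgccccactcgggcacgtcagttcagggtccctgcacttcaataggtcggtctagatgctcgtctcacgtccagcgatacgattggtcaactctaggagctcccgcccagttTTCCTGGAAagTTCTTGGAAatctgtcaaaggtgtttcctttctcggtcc
Bcl6 window 1: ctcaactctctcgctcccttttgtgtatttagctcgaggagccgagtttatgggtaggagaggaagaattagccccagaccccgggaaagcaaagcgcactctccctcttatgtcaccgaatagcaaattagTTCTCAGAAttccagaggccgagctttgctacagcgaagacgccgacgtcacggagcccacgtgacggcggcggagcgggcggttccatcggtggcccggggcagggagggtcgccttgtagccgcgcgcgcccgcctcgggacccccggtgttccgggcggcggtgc
Bcl6 window 2: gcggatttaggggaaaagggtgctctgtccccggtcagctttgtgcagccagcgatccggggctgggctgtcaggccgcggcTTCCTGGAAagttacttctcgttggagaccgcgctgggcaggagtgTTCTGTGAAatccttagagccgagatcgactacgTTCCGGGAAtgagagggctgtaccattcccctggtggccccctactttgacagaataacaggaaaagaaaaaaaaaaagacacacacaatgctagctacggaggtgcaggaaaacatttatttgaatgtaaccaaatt
Igfals window 1: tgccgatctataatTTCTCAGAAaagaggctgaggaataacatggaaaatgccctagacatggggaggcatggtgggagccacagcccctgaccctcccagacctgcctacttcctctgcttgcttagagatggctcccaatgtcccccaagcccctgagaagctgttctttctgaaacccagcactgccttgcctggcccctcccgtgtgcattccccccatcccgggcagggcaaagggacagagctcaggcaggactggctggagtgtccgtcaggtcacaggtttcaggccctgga
Igfals window 2: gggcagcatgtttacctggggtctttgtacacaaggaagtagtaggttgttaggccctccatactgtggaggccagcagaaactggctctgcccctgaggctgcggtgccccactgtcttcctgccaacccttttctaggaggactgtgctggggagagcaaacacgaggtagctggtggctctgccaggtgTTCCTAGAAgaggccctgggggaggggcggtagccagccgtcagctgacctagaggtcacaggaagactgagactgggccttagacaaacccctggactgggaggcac

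Values are log2 bead intensities after normexp correction and quantile normalization with control probes (neqc), within each tissue unless stated otherwise. A gene was called changed at an adjusted p under 0.05 in limma, with adjustment over all 10904 genes tested in liver or 12746 in lung. Of the 9 genes, 8 were tested in each tissue. The Stat5b probe was not above background (detection p under 0.05) on any of the 24 arrays, so it has no level here, and of the Socs2 probes ILMN_1250749 was detected on no liver array and was left out. Where a gene had several probes, the brightest stands for it. The levels of different genes cannot be compared, because each probe has its own response.

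The arrays matched their tissues. The mean of 9 measured hepatocyte markers lay between 12.89 and 13.17 on the liver arrays, and the mean of 8 alveolar and airway markers lay between 13.23 and 13.65 on the lung arrays. In liver, 4 of 8 alveolar and airway markers were detected on no array. Neutrophil markers (9 measured, among them S100a8 and Ngp) moved with the injection in both tissues. Their mean was 11.85 to 12.34 on 4T1 livers, against 5.28 to 5.79 on sham livers, and 13.86 to 14.00 on 4T1 lungs, against 8.40 to 8.99 on sham lungs. In liver, 9 macrophage and Kupffer markers had a mean of 9.41 to 9.66 on 4T1 arrays, against 8.66 to 8.99 on sham arrays. Of these, 7 of 9 were called higher on HFD and 8 of 9 on CD, against 21% and 20.5% of all genes. In lung the mean of the 9 measured was not higher after injection. It was 7.64 to 7.85 in 4T1 HFD and 7.88 to 8.05 in sham HFD lungs, and 7.68 to 7.95 in 4T1 CD and 7.98 to 8.10 in sham CD lungs. The share of probes detected was 40.4 to 41.5% in 4T1 livers, against 34.0 to 36.1% in sham livers, and 43.0 to 44.8% in 4T1 lungs, against 51.0 to 52.4% in sham lungs. The part of these shifts in the results was not tested. In bulk tissue, fewer cells of a type and less RNA per cell cannot be told apart.

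Changes after injection depend on the scale. Median scaling in place of quantile normalization moved the median change of all genes after injection to 0.73 in liver on HFD and 0.66 on CD, and to -0.48 and -0.50 in lung, so the changes given here are relative to a normalization that holds these medians near 0. Genes higher in 4T1 then made up 98.2% of all calls in liver on HFD and 97.3% on CD, against 43.1% and 47.3% with quantile normalization. In lung they made up 12.8% on HFD and 12.0% on CD, against 41.9% and 39.0%.

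In liver, the injection changes of Bcl6 and Cish had opposite signs on the 2 diets, and wherever both were called they moved in opposite directions. After 4T1 injection on CD, 3 of 8 genes changed, against 43.3% of all genes tested: Bcl6 was higher, and Cish and Igfbp2 were lower. After 4T1 injection on HFD, 4 of 8 changed, against 48.8% of all genes: Cish, Socs2 and Igfbp3 were higher and Bcl6 was lower. On HFD against CD in sham mice, 2 of 8 changed (Bcl6 higher, Cish lower), against 11.2% of all genes. The same diets in 4T1 mice gave 0 of 8 calls in limma, against 0.303% of all genes, with 4 genes at an unadjusted p under 0.05 (Bcl6, Cish, Ghr and Igfbp2). Cish alone was called there with array weights, with the authors' log2 values or with a stricter detection filter. In the same order, 266 and 170 of 10904 genes and 49 of 9736 were called. The 4 comparisons share arrays, since each group enters 2 of them. The median log2 change of the 8 genes was 0.01 after injection on either diet, against medians of -0.06 on HFD and -0.03 on CD over all genes.

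**Figure D1:**
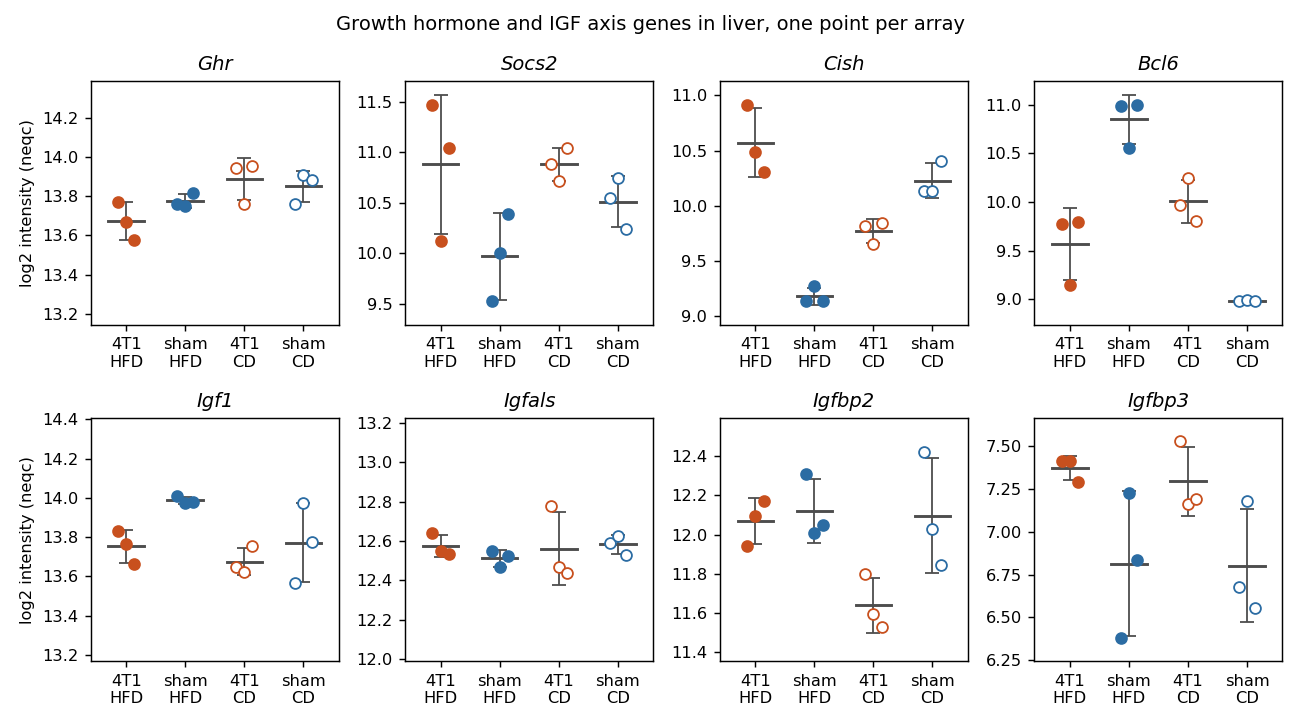
Log2 intensity (neqc) of the 8 tested genes on each of the 12 liver arrays, with a panel per gene and its own vertical scale. Points are arrays (orange 4T1, blue sham, filled HFD, open CD), lines are group means and bars are SDs of 3 arrays; Bcl6 is highest in sham HFD livers, where Cish is lowest.

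Bcl6 encodes a zinc-finger repressor. Its log2 intensity was 9.78, 9.15 and 9.80 in 4T1 HFD livers, against 10.99, 10.56 and 11.00 in sham HFD livers. It was 9.97, 10.24 and 9.81 in 4T1 CD livers, against 8.99, 8.99 and 8.98 in sham CD livers. In both pairs the groups did not overlap: 4T1 livers lay below sham livers on HFD and above them on CD. On CD the injection difference was 1.02 ± 0.18 (SE; 2.03-fold higher in 4T1, adjusted p = 0.00143 in limma). On HFD it was -1.27 ± 0.18 (2.42-fold lower in 4T1, adjusted p = 0.000315), while under median scaling it was -0.38 and was not called (adjusted p = 0.0849). The diet difference in sham mice was 1.86 ± 0.18 (3.63-fold higher on HFD, adjusted p = 0.000168). In 4T1 mice the diet difference was -0.43 ± 0.18, with adjusted p = 0.502. The order of group means was sham HFD (10.85 ± 0.25), 4T1 CD (10.01 ± 0.22), 4T1 HFD (9.57 ± 0.37) and sham CD (8.99 ± 0.00; SD, n = 3 each), and of these neighbours 4T1 HFD and 4T1 CD were tested and did not pass, while the other neighbouring pairs were not tested. The diet-by-injection interaction, the injection difference on HFD minus that on CD, was -2.29 ± 0.26 (adjusted p = 0.00338).

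Cish encodes a cytokine-inducible SH2 protein of the SOCS family that dampens STAT5 signalling. Its log2 intensity was 10.92, 10.49 and 10.31 in 4T1 HFD livers, against 9.14, 9.27 and 9.13 in sham HFD livers. It was 9.82, 9.65 and 9.84 in 4T1 CD livers, against 10.14, 10.13 and 10.41 in sham CD livers. The groups again did not overlap in either pair, with 4T1 livers above sham livers on HFD and below them on CD. The injection difference was 1.39 ± 0.14 on HFD (2.62-fold higher, adjusted p = 3.99e-05). On CD it was -0.45 ± 0.14 (1.37-fold lower, adjusted p = 0.0265), a direction that turned under median scaling, where it was 0.33. That call was also lost without sham CD replicate 3, 4T1 CD replicate 1 or 4T1 CD replicate 2, with adjusted p up to 0.0949. The diet difference was -1.05 ± 0.14 in sham mice (2.06-fold lower on HFD, adjusted p = 0.00121) and 0.80 ± 0.14 in 4T1 mice (adjusted p = 0.0517). The interaction was 1.84 ± 0.20 (adjusted p = 0.00328). Bcl6 and Cish were the 2 of 8 genes with a called interaction, against 0.945% of all genes tested.

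**Figure D2:**
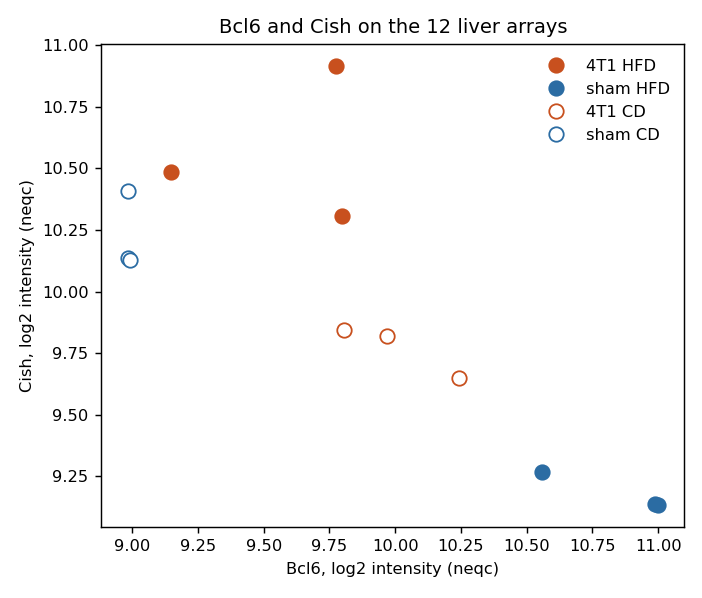
Bcl6 (horizontal) against Cish (vertical) in log2 intensity on the 12 liver arrays, with a point per array, coloured by injection and filled for HFD. The 3 sham HFD arrays sit at the lower right, and the sham CD and 4T1 HFD arrays at the upper left, with the 4T1 CD arrays between them.

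Genes of the circadian clock, listed after these values were seen, also changed with diet in sham livers and in the liver interaction. All 12 measured clock genes changed with diet in sham livers, 4 higher and 8 lower on HFD, against 11.2% of all genes called. Arntl, an activator of the clock loop that was detected on 1 of 3 sham CD arrays, differed by 2.90 (adjusted p = 0.00015) and the period gene Per3 by -2.38 (adjusted p = 0.00011). In 4T1 livers 0 of 12 clock genes were called for diet, against 0.303% of all genes, and 5 of 12 had a called interaction, against 0.945%, Arntl at -2.03 and Per3 at 2.11 among them. The mean over the 12 genes was 8.35 to 8.63 in 4T1 HFD livers, 8.29 to 8.44 in sham HFD livers, 8.73 to 8.87 in 4T1 CD livers and 8.84 to 9.01 in sham CD livers. In lung, 9 of 12 clock genes changed with diet in sham mice, against 1.67% of all genes, where Bcl6 and Cish were not called. The lung mean over the 12 genes, which does not show the direction of single genes, was lower after injection on both diets. It was 9.46 to 9.68 in 4T1 HFD and 10.03 to 10.07 in sham HFD lungs, and 9.67 to 9.75 in 4T1 CD and 10.20 to 10.28 in sham CD lungs. The labels do not give the hour at which tissue was taken, and the part of the clock in the Bcl6 and Cish results was not tested.

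Socs2, a further feedback inhibitor of the growth hormone receptor, varied widely between livers of the same group. It was 11.47, 10.12 and 11.04 in 4T1 HFD livers, against 9.53, 10.00 and 10.39 in sham HFD livers. The groups overlapped, with the lowest 4T1 array below the highest sham array. The difference was 0.91 ± 0.31 (1.88-fold, adjusted p = 0.0317). It was not called without sham HFD replicate 1 or 2, or without 4T1 HFD replicate 1 or 3 (adjusted p up to 0.123). On CD it was 10.88, 10.71 and 11.05 in 4T1 livers, against 10.55, 10.74 and 10.24 in sham livers, a difference of 0.37 ± 0.31 (adjusted p = 0.367). The diet difference in sham livers was -0.54 ± 0.31 (adjusted p = 0.308).

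Ghr did not pass the test in any liver comparison with its brightest probe. That probe, ILMN_1253504, was 13.77, 13.67 and 13.58 in 4T1 HFD livers, against 13.76, 13.75 and 13.82 in sham HFD livers. It was 13.94, 13.76 and 13.95 in 4T1 CD livers, against 13.76, 13.91 and 13.88 in sham CD livers. The groups overlapped in both pairs, and the 95% interval of the injection difference ran between -0.29 and 0.08 on HFD and between -0.15 and 0.22 on CD. The probes of Ghr disagreed. ILMN_1247348 was 9.66, 9.69 and 9.59 in 4T1 HFD livers, against 10.57, 10.42 and 10.23 in sham HFD livers, a difference of -0.76 ± 0.11 (adjusted p = 0.00032). ILMN_3138922 differed there by 0.19 ± 0.14 (adjusted p = 0.284).

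Igf1, the main hormone output of the axis, was 13.83, 13.76 and 13.66 in 4T1 HFD livers, against 14.01, 13.97 and 13.98 in sham HFD livers. All 3 injected livers lay below the 3 sham livers, yet the difference of -0.23 ± 0.10 did not pass the test (adjusted p = 0.0753). The second Igf1 probe, ILMN_2769884, was 12.85, 12.70 and 12.68 in 4T1 HFD livers, against 13.11, 12.97 and 13.02 in sham HFD livers, and its difference of -0.29 ± 0.09 was called (adjusted p = 0.0262). On CD, Igf1 was 13.65, 13.62 and 13.75 in 4T1 livers, against 13.57, 13.97 and 13.78 in sham livers, and the groups overlapped (-0.10 ± 0.10, adjusted p = 0.466). Igfals, which encodes the acid-labile subunit, was 12.64, 12.55 and 12.53 in 4T1 HFD livers, against 12.55, 12.47 and 12.52 in sham HFD livers. It was 12.78, 12.47 and 12.44 in 4T1 CD livers, against 12.59, 12.63 and 12.53 in sham CD livers. Its 95% interval for the injection difference ran between -0.14 and 0.27 on HFD and between -0.23 and 0.19 on CD.

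The carriers IGFBP2 and IGFBP3 bind IGF1 in blood. Igfbp2 was 11.80, 11.59 and 11.53 in 4T1 CD livers, against 12.42, 12.03 and 11.84 in sham CD livers, with no overlap. The difference was -0.46 ± 0.15 (1.37-fold lower, adjusted p = 0.0276), and it turned to 0.21 under median scaling. Its call was lost without sham CD replicate 1, where it was -0.29 (adjusted p = 0.0829), and without 4T1 CD replicate 2 or 3. The other Igfbp2 probe, ILMN_1236788, was lower there (difference -1.0 ± 0.18, adjusted p = 0.00155). On HFD, Igfbp2 was 11.94, 12.09 and 12.17 in 4T1 livers, against 12.31, 12.01 and 12.05 in sham livers, and did not pass the test (-0.05 ± 0.15, adjusted p = 0.8). There ILMN_1236788 differed by -0.47 ± 0.18 and was not called either (adjusted p = 0.0563 in limma). The diet-by-injection interaction was called for neither probe (0.41 for the brightest and 0.54 for ILMN_1236788). Igfbp3 was 7.41, 7.41 and 7.29 in 4T1 HFD livers, against 6.38, 7.23 and 6.83 in sham HFD livers, a difference of 0.56 ± 0.21 (adjusted p = 0.049). This call was lost on leaving out any of 9 of the 12 liver arrays (adjusted p up to 0.181), and the difference was 0.34 without sham HFD replicate 1. The second Igfbp3 probe, ILMN_2727503, differed by -0.28 there, so the direction for Igfbp3 in liver rests on the choice of probe. The brightest Igfbp3 probe was detected on 3 of 3 arrays of each liver group, but it was dim. Its mean bead signal was 354 in 4T1 HFD and 248 in sham HFD livers, against 143 and 187 for the undetected Stat5b probe.

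Of 18 tested genes of growth hormone receptor signalling in liver, Cish and other members included, 7 rose and 5 fell after injection on HFD, and 4 rose and 5 fell on CD. The calls were 12 of 18 on HFD and 9 of 18 on CD, against 48.8% and 43.3% of all genes. Socs3, a cytokine-induced inhibitor, averaged 9.94 ± 0.19 in 4T1 HFD livers and 8.31 ± 0.20 in sham HFD livers, and 10.42 ± 0.07 in 4T1 CD livers and 8.33 ± 0.36 in sham CD livers (SD, n = 3 each). It rose by 1.63 on HFD (adjusted p = 4.29e-05) and 2.10 on CD (adjusted p = 8.13e-06). Stat3, the factor downstream of interleukin receptors, rose by 1.42 and 1.34 (adjusted p = 0.00029 and 0.00048), and the phosphatase gene Ptpn1 rose by 1.40 on HFD (adjusted p = 0.00077). Jak2 was 0.30 higher on HFD and 0.33 higher on CD (adjusted p = 0.0122 and 0.00863). The adaptor genes Gab1 (-0.64, adjusted p = 0.0002) and Sos1 (-0.84, adjusted p = 0.025) fell on CD, Sos1 being detected on 1 of 3 injected arrays, and Gab1 was at 0.15 under median scaling. Under that scaling 13 of the 18 rose and 0 fell on HFD, and 12 rose and 0 fell on CD. Of all 10904 genes, 8723 were then called higher on HFD and 8215 on CD. Stat5a, the close relative of Stat5b, did not pass the test on HFD (-0.22) or on CD (0.08).

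Of 15 tested IGF ligands, receptors, binding proteins and proteases, 4 rose and 2 fell after injection on HFD, and 3 rose and 5 fell on CD. These 6 of 15 and 8 of 15 calls stand against 48.8% and 43.3% of all genes. The IGF1 receptor gene Igf1r averaged 6.97 ± 0.12 in 4T1 HFD livers and 6.10 ± 0.17 in sham HFD livers. It rose by 0.87 on HFD (adjusted p = 0.00043) and 0.52 on CD (adjusted p = 0.00884). Igfbp7 rose by 0.63 on HFD and 0.65 on CD. On CD, the fetal growth factor Igf2 fell (-0.85, adjusted p = 0.0144). The binding protein gene Igfbp4 fell on both diets (-0.37 on HFD and -0.57 on CD), and on HFD its difference was 0.29 under median scaling. Under that scaling 13 of the 15 rose and 0 fell on HFD, and 10 rose and 0 fell on CD. Of all 10904 genes, 8723 were then called higher on HFD and 8215 on CD. Igfbp1, a fasting-responsive binding protein, did not pass the test on HFD (0.43) or on CD (0.30) and was detected on none of the sham HFD arrays. With diet, 0 of the 15 were called in 4T1 or in sham livers in limma.

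Sex-biased liver genes under growth hormone control were read in these female mice. Of 15 tested female-biased genes, 2 rose and 8 fell after injection on HFD, and 1 rose and 12 fell on CD. On HFD against CD, 0 rose and 7 fell in sham livers, and 0 rose and 2 fell in 4T1 livers. Of all genes, 27.7% fell after injection on HFD and 22.8% on CD, and with HFD 5.14% fell in sham livers and 0.165% in 4T1 livers. The list's median log2 change after injection was -0.61 on HFD and -0.85 on CD, against -0.06 and -0.03 over all genes. Under median scaling 5 rose and 5 fell after injection on HFD, and 3 rose and 5 fell on CD, with list medians of 0.09 and -0.08 against 0.73 and 0.66 over all genes. Of all 10904 genes, 8881 were then called on HFD, 8723 of them higher, and 8443 on CD, 8215 of them higher. For HFD against CD in sham livers the count under that scaling was again 7 lower and 0 higher. There 802 of all genes were called, 166 of them higher. Acot3, an acyl-CoA thioesterase gene, averaged 10.49 ± 0.20 in 4T1 HFD livers and 11.89 ± 0.09 in sham HFD livers, and 11.67 ± 0.08 in 4T1 CD livers and 13.49 ± 0.05 in sham CD livers (SD, n = 3 each). Cyp17a1, a steroid hydroxylase gene, fell with injection (-1.55 on HFD and -1.47 on CD) and with HFD (-2.45 in 4T1 and -2.37 in sham livers), with adjusted p up to 0.0013. Cux2, a female-specific repressor in mouse liver that was picked after its values were seen, was called for diet in sham livers (-1.37, adjusted p = 0.00511), and on CD for injection (-0.85, adjusted p = 0.016).

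Of 13 tested male-biased genes, a list that includes Bcl6, 2 rose and 2 fell after injection on HFD, and 2 rose and 1 fell on CD. These 4 of 13 and 3 of 13 calls stand against 48.8% and 43.3% of all genes. Mup20, a major urinary protein gene, fell by 1.40 on HFD and by 1.80 on CD (adjusted p = 0.00027 and 6.8e-05). The complement gene C6 rose by 1.26 and 1.70 (adjusted p = 0.0001 and 1.5e-05). Hsd3b5, a steroid dehydrogenase gene, was lower on HFD, with a difference of -3.10 in 4T1 livers (adjusted p = 0.00412) and -3.31 in sham livers (adjusted p = 0.00017), where it was detected on 1 of 3 HFD arrays.

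In lung, Bcl6 rose and Ghr and Socs2 fell after 4T1 injection on both diets. On HFD, 5 of 8 genes changed, against 53.9% of all genes tested: Bcl6 and Igf1 were higher, and Ghr, Socs2 and Igfbp3 were lower. The median change of the 8 genes was -0.26 on HFD and -0.19 on CD, against -0.08 and -0.09 over all genes. On CD, 3 of 8 changed, against 52.8% of all genes: Bcl6 was higher and Ghr and Socs2 were lower. Diet gave 0 of 8 calls in limma in 4T1 lungs, against 0% of all genes, with Igf1 at an unadjusted p under 0.05. It also gave 0 of 8 calls in sham lungs, against 1.67% of all genes, with Ghr, Igfbp3 and Socs2 at an unadjusted p under 0.05. The interaction gave 0 of 8 calls, against 0.0863% of all genes, with Igfbp3 at an unadjusted p under 0.05. Diet in sham lungs gave 1 call, Igfbp3, with the authors' log2 values, and 2, Igfbp3 and Socs2, with array weights. Of all 12746 genes, 369 and 471 were called in these settings.

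**Figure D3:**
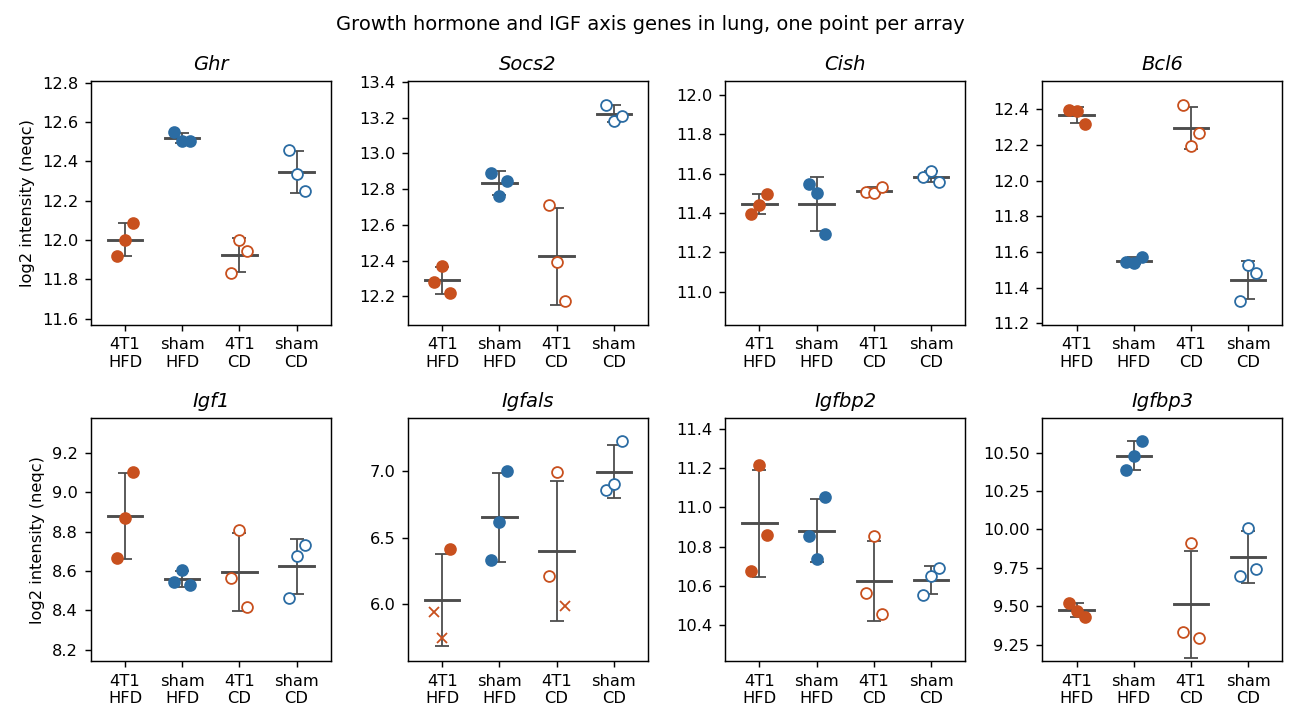
Log2 intensity (neqc) of the 8 tested genes on each of the 12 lung arrays, drawn as for liver; crosses are arrays where the probe was not above background. Bcl6 separates 4T1 from sham arrays on both diets, and the 3 crosses of Igfals are in 4T1 lungs.

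Bcl6 was 12.40, 12.39 and 12.32 in 4T1 HFD lungs, against 11.54, 11.54 and 11.57 in sham HFD lungs. It was 12.43, 12.19 and 12.27 in 4T1 CD lungs, against 11.32, 11.53 and 11.48 in sham CD lungs. All 6 injected lungs lay above all sham lungs. The difference was 0.82 ± 0.07 on HFD and 0.85 ± 0.07 on CD (adjusted p = 5.61e-06 and 4.48e-06). Cish did not pass the test in lung in any comparison. It was 11.40, 11.44 and 11.50 in 4T1 HFD lungs, against 11.55, 11.50 and 11.29 in sham HFD lungs, a difference of 0.00 ± 0.07 with a 95% interval between -0.15 and 0.15.

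Socs2 was 12.28, 12.37 and 12.22 in 4T1 HFD lungs, against 12.89, 12.76 and 12.85 in sham HFD lungs. It was 12.71, 12.39 and 12.17 in 4T1 CD lungs, against 13.27, 13.18 and 13.21 in sham CD lungs. The injected lungs lay below the sham lungs of their diet in both pairs. The difference was -0.54 ± 0.11 on HFD and -0.80 ± 0.11 on CD (adjusted p = 0.00196 and 0.000176). Ghr was 11.92, 12.00 and 12.09 in 4T1 HFD lungs, against 12.55, 12.51 and 12.50 in sham HFD lungs. It was 11.83, 12.00 and 11.94 in 4T1 CD lungs, against 12.46, 12.33 and 12.25 in sham CD lungs, again with no overlap. The difference was -0.52 ± 0.07 on HFD and -0.42 ± 0.07 on CD (1.43-fold and 1.34-fold lower, adjusted p = 0.000143 and 0.000629). The probe ILMN_3138922 was lower too (-0.76 and -0.49, both called), while ILMN_1247348 was not called (-0.22 and -0.06). Endothelial markers, 10 measured, had a mean of 10.84 to 10.99 in 4T1 lungs and 11.16 to 11.25 in sham lungs, and the part of cell composition in the Ghr and Socs2 results was not tested.

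Igfbp3 was 9.52, 9.47 and 9.43 in 4T1 HFD lungs, against 10.38, 10.48 and 10.57 in sham HFD lungs. The groups did not overlap, and the difference was -1.0 ± 0.15 (2.01-fold lower, adjusted p = 0.000218). On CD it was 9.33, 9.91 and 9.29 in 4T1 lungs, against 9.70, 10.01 and 9.74 in sham lungs, with overlap and a difference of -0.31 ± 0.15 (adjusted p = 0.105). Without 4T1 CD replicate 2 this difference was -0.51 and was called. The sham HFD lungs were highest, 0.66 ± 0.15 above sham CD lungs (adjusted p = 0.0559), and the interaction was -0.70 ± 0.21 (adjusted p = 0.231). The injection differences on the 2 diets were therefore not shown to differ. The other probe, ILMN_2727503, fell on HFD too (-0.38 ± 0.13, adjusted p = 0.0291).

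Igf1, read in lung by ILMN_2769884, was 8.67, 8.87 and 9.10 in 4T1 HFD lungs, against 8.54, 8.61 and 8.53 in sham HFD lungs. The difference of 0.32 ± 0.12 was called at adjusted p = 0.048, the call was lost on leaving out any of 8 of the 12 arrays (adjusted p up to 0.179), and the difference was 0.21 without 4T1 HFD replicate 3. It was -0.17 under median scaling. Tested over all kept probes, ILMN_2769884 was not called (adjusted p = 0.0504 in limma). The other probe, ILMN_1225565, was not called either (0.20 ± 0.21, adjusted p = 0.451 in limma). Igfbp2 was 10.68, 11.22 and 10.86 in 4T1 HFD lungs, against 10.86, 10.74 and 11.05 in sham HFD lungs, and the groups overlapped. Igfals was close to background in lung: it was detected on 1 of 3 4T1 HFD arrays, 3 of 3 sham HFD arrays, 2 of 3 4T1 CD arrays and 3 of 3 sham CD arrays. Its values were 5.94, 5.74 and 6.42 in 4T1 HFD lungs, against 6.33, 6.62 and 7.00 in sham HFD lungs (-0.62 ± 0.27, adjusted p = 0.0712). On CD they were 6.21, 6.99 and 5.99 in 4T1 lungs, against 6.86, 6.90 and 7.22 in sham lungs (-0.60 ± 0.27, adjusted p = 0.0817). Without 4T1 CD replicate 2, which holds the value 6.99, the CD difference was -0.91 and was called. Hepatocyte markers, 7 of which were measured in lung, moved the same way: their mean was 7.24 to 8.52 in 4T1 HFD lungs and 8.63 to 9.28 in sham HFD lungs, and 7.82 to 8.95 in 4T1 CD lungs and 9.24 to 9.68 in sham CD lungs. The highest 4T1 CD value, 8.95, was that of replicate 2. The part of liver RNA in lung Igfals was not tested.

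Of 17 tested receptor signalling genes in lung, 7 rose and 5 fell on HFD, and 6 rose and 5 fell on CD, against 53.9% and 52.8% of all genes called in either direction. Socs3 averaged 12.52 ± 0.07 in 4T1 HFD lungs and 10.61 ± 0.10 in sham HFD lungs, and 12.58 ± 0.06 in 4T1 CD lungs and 10.30 ± 0.17 in sham CD lungs (SD, n = 3 each). It rose by 1.91 on HFD and 2.27 on CD (adjusted p = 2.55e-08 and 5.83e-09). The phosphatase gene Ptpn6, abundant in blood cells, rose by 1.73 and 1.91, and the adaptor gene Grb2 by 1.34 and 1.23. Neutrophil markers rose on the same arrays, as given above. Stat5a was 0.34 higher on HFD (adjusted p = 0.00376) and Jak2 was 0.19 higher (adjusted p = 0.0272). On CD neither passed (0.17 and 0.11). Under median scaling 4 of the 17 rose and 11 fell on each diet, and on HFD Stat5a was at -0.17 and Jak2 at -0.23. Of all 12746 genes, 10364 were then called on HFD, 1329 of them higher, and 10458 on CD, 1255 of them higher.

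Of 16 tested IGF system genes in lung, 4 rose and 5 fell on HFD, and 2 rose and 7 fell on CD, so 9 of 16 were called on each diet, against 53.9% and 52.8% of all genes. Igf1r was 0.30 higher on HFD and 0.25 higher on CD (adjusted p = 0.00114 and 0.00358), and Igf2 fell (-0.57 and -0.44, adjusted p = 0.0003 and 0.0018). The binding protein gene Igfbp5 (-0.60 on HFD, adjusted p = 0.00058), and the protease gene Pappa (-0.46 on HFD, adjusted p = 0.0072), whose product cleaves IGF binding proteins, were lower too. Under median scaling 0 of the 16 rose and 12 fell on HFD, 0 rose and 15 fell on CD, and Igf1r was at -0.13 on HFD and -0.20 on CD. Of all 12746 genes, 10364 were then called on HFD, 1329 of them higher, and 10458 on CD, 1255 of them higher. With diet, 0 of the 16 were called in 4T1 or in sham lungs in limma.

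**Figure D4:**
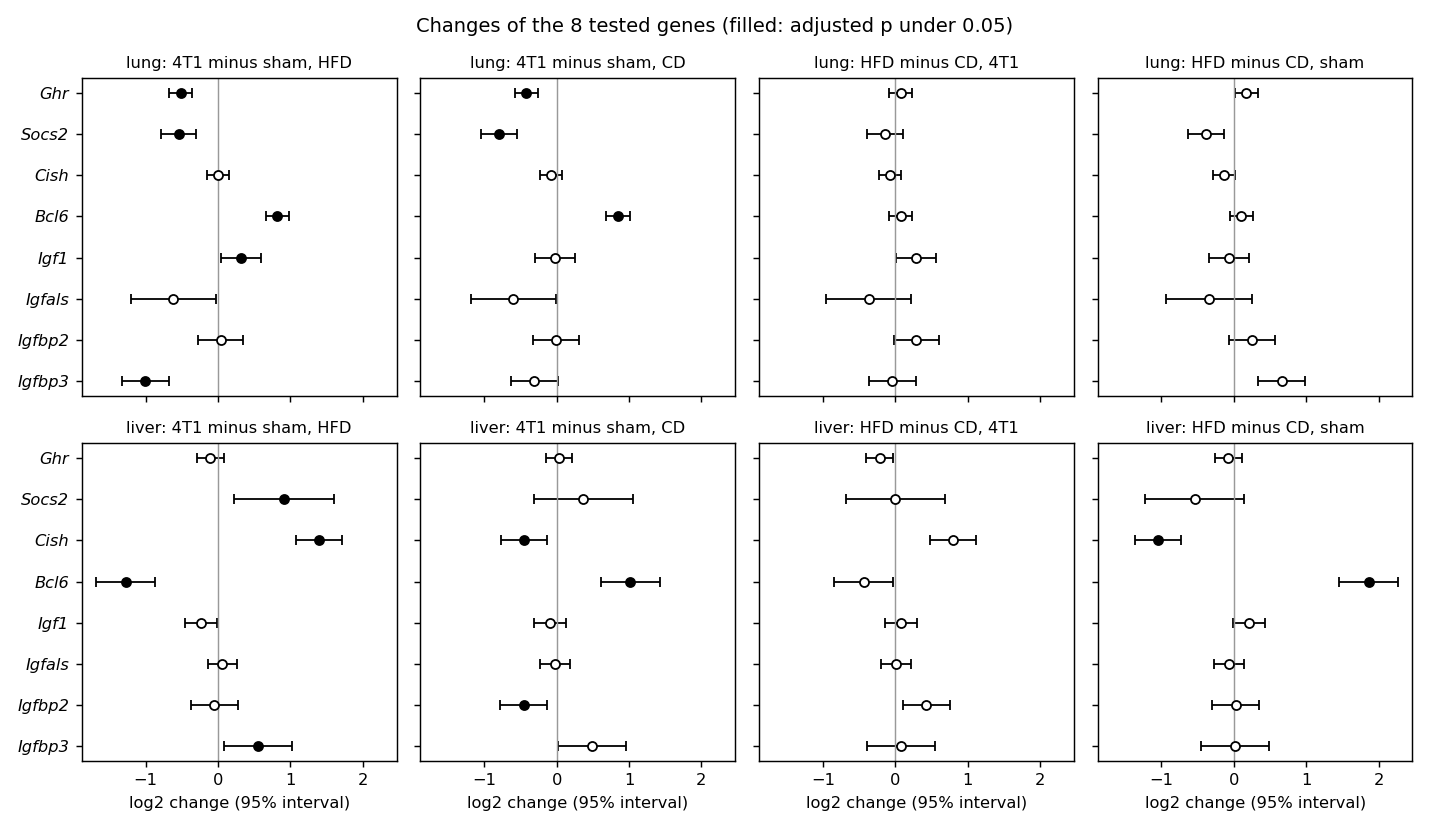
Log2 changes of the 8 tested genes with 95% intervals, lung above liver, for 4T1 minus sham on HFD and on CD and for HFD minus CD in 4T1 and in sham mice. Filled points had an adjusted p under 0.05 in limma; in liver the Bcl6 and Cish points change sides between the diets, and in lung Bcl6 is at 0.82 and 0.85.

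Lung and liver were compared with all 24 arrays normalized together, over 13386 genes. In sham CD mice all 8 genes differed between the tissues, as did 76.1% of all genes tested. Igf1 was 7.69, 7.80 and 8.11 in lung, against 13.71, 14.08 and 13.90 in liver, a difference of -6.03 ± 0.18. These values come from ILMN_1225565, the brightest Igf1 probe over all 24 arrays, while ILMN_2769884 was used within lung. With ILMN_2769884 the means were 8.07 in lung and 13.06 in liver. Igfals was 6.34, 6.38 and 6.67 in lung, against 12.86, 12.90 and 12.81 in liver, a difference of -6.39 ± 0.18. Ghr (-1.92 ± 0.07) and Igfbp2 (-2.24 ± 0.15) were also lower in lung. Socs2 (1.95 ± 0.23), Igfbp3 (1.59 ± 0.19), Bcl6 (1.35 ± 0.14) and Cish (0.39 ± 0.11) were higher in lung. The largest adjusted p of the 8 was 0.00265, for Cish. Under median scaling the median lung minus liver difference of all genes was 1.06, against 0.09 with quantile normalization, and 81.0% of calls were higher in lung, against 54.6%.

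**Figure D5:**
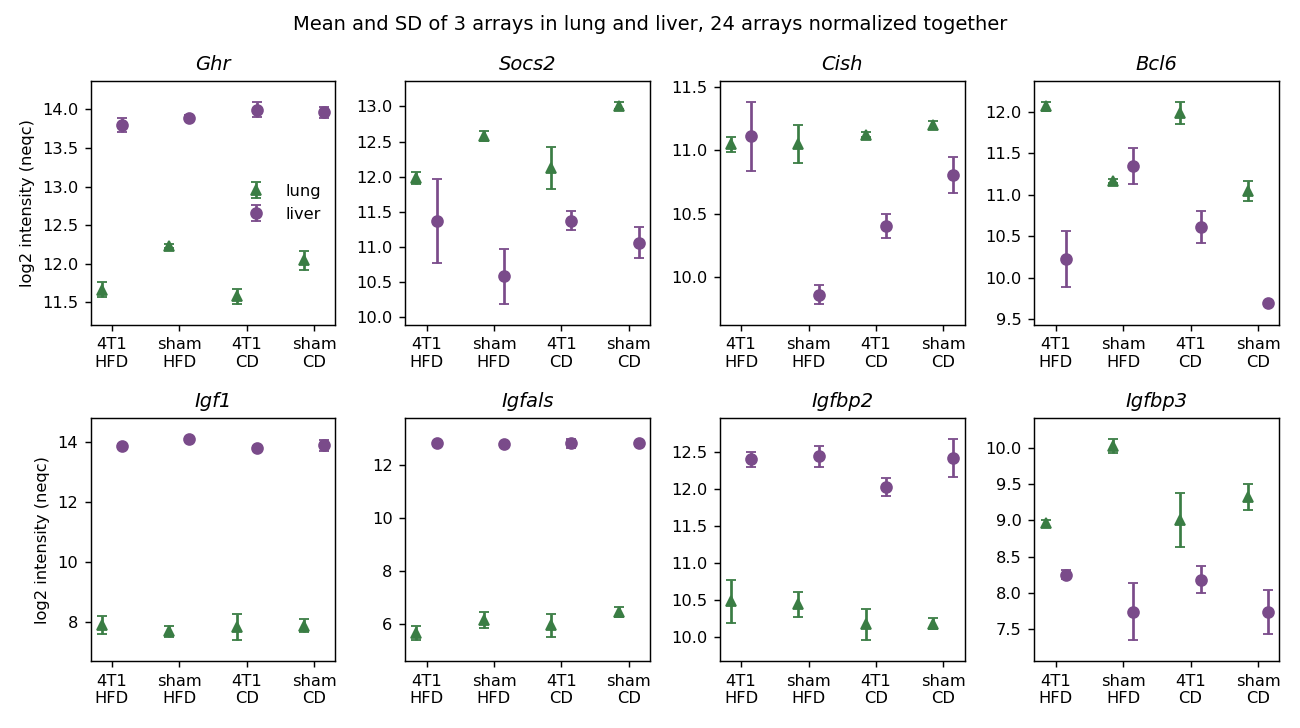
Mean and SD (3 arrays) of log2 intensity of the 8 tested genes in lung (triangles) and liver (circles) for each injection and diet group, with all 24 arrays normalized together. In sham CD mice the lung minus liver difference is -6.03 for Igf1 and -6.39 for Igfals, against 1.35 for Bcl6.

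For 6 of 8 genes, against 55.2% of all genes tested, the mean injection effect over HFD and CD was not the same in lung as in liver. Bcl6 changed by 0.92 in lung and -0.10 in liver, a difference of 1.02 ± 0.14 (adjusted p = 4.7e-06) that was -0.33 under median scaling. The liver value is a mean over diets with opposite changes. By diet, Bcl6 changed in the same joint fit by 0.90 in lung and -1.12 in liver on HFD (difference 2.02 ± 0.19, adjusted p = 2.09e-07; 45.3% of all genes were called). On CD it changed by 0.94 in lung and 0.92 in liver (difference 0.01 ± 0.19, 95% interval between -0.39 and 0.42, adjusted p = 0.962; 39.1% of all genes were called). Socs2 changed by -0.74 in lung and 0.55 in liver (difference -1.29 ± 0.23, adjusted p = 8.66e-05), and Igfbp3 by -0.69 and 0.48 (difference -1.17 ± 0.19, adjusted p = 3.77e-05). That Igfbp3 contrast rests on the brightest probe, which was dim in liver as given above. In the fits within a tissue the other probe, ILMN_2727503, had negative injection differences in both tissues. They were -0.38 on HFD and -0.11 on CD in lung, and -0.28 and -0.09 in liver. Only the lung HFD value was called, and the tissue contrast of this probe was not tested. Ghr changed by -0.52 in lung and -0.03 in liver (difference -0.49 ± 0.07, adjusted p = 2.4e-05). Its other probes disagreed in the fits within a tissue. ILMN_1247348 gave -0.22 on HFD and -0.06 on CD in lung, and -0.76 and 0.003 in liver. ILMN_3138922 gave -0.76 and -0.49 in lung, and 0.19 and 0.28 in liver. Their tissue contrasts were not tested. Cish gave -0.04 in lung and 0.42 in liver (difference -0.46 ± 0.11, adjusted p = 0.0012), again a mean over opposite liver changes. Its differences by diet were -1.25 ± 0.15 on HFD (adjusted p = 2.98e-06) and 0.32 ± 0.15 on CD (adjusted p = 0.0973). Igfals, close to background in lung as given above, gave -0.50 in lung and 0.02 in liver (difference -0.52 ± 0.18, adjusted p = 0.0196). By diet its differences did not pass the test (-0.55 on HFD, adjusted p = 0.0819, and -0.48 on CD, adjusted p = 0.144, in limma). The differences for Igf1 (0.24, read by ILMN_1225565) and Igfbp2 (0.24) did not pass the test. The diet effect in sham mice, a comparison added after the liver values were seen, differed between lung and liver for Bcl6 (-1.54 ± 0.19, adjusted p = 9.57e-05) and Cish (0.79 ± 0.15, adjusted p = 0.00387), 2 of 8 genes, against 5.18% of all genes.

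As a description, the genes with the profiles most like each changed gene were listed by Pearson correlation over the 12 arrays of a tissue, which share 4 groups, so that any gene with the same group pattern correlates. In liver these were Snai2, Stx4a and Dync1i2 for Bcl6 (r = 0.94, 0.93 and 0.93) and Slc39a1, Ndc1 and Stx2 for Cish (0.85, 0.85 and 0.84). They were Tbc1d15, Marchf7 and Plac9a for Socs2 (0.88, 0.86 and 0.86), Gbp2, Ugt1a9 and Ubd for Igfbp2 (0.87, 0.86 and 0.85) and Dnajc24, Dip2c and Fam133b for Igfbp3 (0.94, 0.93 and 0.92). In lung they were Anxa1, Ms4a3 and Thap6 for Bcl6 (0.997, 0.991 and 0.991) and Slc29a1, Sorbs3 and Tmem63b for Socs2 (0.98, 0.97 and 0.97). They were Mbnl1, Prmt2 and Dhx15 for Ghr (0.98, 0.98 and 0.97), Ppp1r3c, Prpf6 and Rnf20 for Igfbp3 (0.97, 0.95 and 0.94) and Fancd2, Dcakd and Dlk1 for Igf1 (0.95, 0.90 and 0.89).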

How the data were processed

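Liver and lung RNA of 8 groups was measured on 24 single-colour Illumina bead arrays. The authors deposited bead intensity and a detection p-value per probe, exported from GenomeStudio 2009.2 per the submitters' processing notes, and a separate table of log2 values. The authors' deposited log2 values matched log2 of signals quantile-normalized within each tissue to within 0.01 for 99.99945% of liver values (3 lay further away) and 100% of lung values.

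Intensities were normalized with neqc (limma 3.58.1, R 4.3.3, offset 16) within each tissue, and over all 24 arrays for lung against liver. Probes with 1 gene symbol and a detection p under 0.05 on at least 3 arrays were kept: 16639 in liver, 20464 in lung and 21640 jointly. Of 45281 probes, 34885 had 1 symbol, 18 several and 10378 none. The brightest kept probe stood for a gene. Linear models over the 4 groups of a tissue (8 groups jointly) were tested with limma's moderated statistics and Benjamini-Hochberg adjustment over all genes, and results of single probes over all kept probes. The fitting was tested on simulated data.

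All 9 genes were reported. Other genes named were among the 4 largest called changes of a list in a comparison, or were Igf1r, Jak2, Stat5a, Socs3, Igf2 and Igfbp1 wherever measured, or the 3 most correlated genes. The members and lists were chosen with earlier results of these data known. The clock list, the tissue contrasts of the sham diet effect and of the injection effect by diet, the lung and liver block and the recount of lists under other scalings were added after the values were seen. The alternatives were the authors' values, median scaling, other filters and probes, array weights, 2-group fits, a replicate block and leaving out each array. No 2 arrays were identical (highest correlation 0.997). The sources name neither slide nor scan of an array. The number of arrays limits the precision.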

Additional observations from a re-analysis of the deposited data

Results flagged for a closer look

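In liver, the injection effect differed between the diets by the test of the interaction itself for Cish (1.84) and Bcl6 (-2.29), HFD minus CD on the log2 scale. A test of the same kind separated the tissues in their mean injection effect over HFD and CD for Bcl6 (1.02), Ghr (-0.49), Igfals (-0.52), Igfbp3 (-1.17), Socs2 (-1.29) and Cish (-0.46), lung minus liver. For Bcl6 and Cish the liver mean joins opposite changes on the 2 diets: by diet, the Bcl6 difference was 2.02 on HFD and 0.01 on CD, and the Cish difference was -1.25 on HFD and 0.32 on CD, the CD differences not passing the test. The Ghr and Igfbp3 differences rest on the brightest probe of each gene, and their other kept probes did not all share the pattern, as given above. Lung Igfals was close to background, and its tissue differences by diet did not pass the test. The diet effect in sham mice differed between lung and liver for Cish (0.79) and Bcl6 (-1.54).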

How the results depend on the processing

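The calls of Bcl6 and Cish for diet in sham livers, for injection on HFD and for the liver interaction held on leaving out any array (Bcl6 interaction -2.43 to -2.09, Cish interaction 1.68 to 1.99). Of 104 results, each for 1 gene in 1 comparison, 35 were called in the main fits. Under at least 1 setting, with median scaling, other probes and left-out arrays included, 58 were called. The other 46 were never called, and 17 of them changed sign under some setting. Calls under at least 1 setting were not counted over all genes. Median scaling, which shifted the median of all genes, reversed 12 of the 58 values. After injection in liver it gave Cish 0.33, Igf1 0.53, Igfals 0.59 and Igfbp2 0.21 on CD, and Ghr 0.62, Igf1 0.49 and Igfbp2 0.71 on HFD, where Bcl6 was -0.38 and no longer called (adjusted p = 0.0849 in limma). In lung on HFD it gave Igf1 -0.17 and Igfbp2 -0.39. For injection in lung minus liver it gave Bcl6 -0.33, Igf1 -0.95 and Igfbp2 -0.90. The number of the 8 genes called after injection became 7 in liver on HFD, 6 in liver on CD and 8 in lung on CD. Of all genes, 8881 on HFD and 8443 on CD of 10904 were then called in liver, and 10458 of 12746 in lung on CD. Other probes reversed Ghr (0.19) and Igfbp3 (-0.28) in liver on HFD and Igfbp3 (-0.093) on CD.

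After injection in liver on HFD, 2 genes were called with array weights or with only the 2 groups compared. Of all 10904 genes, 5303 and 4908 were called there. For diet in 4T1 livers 1 was called with array weights, the authors' values or a detection p under 0.01. All-gene calls in these settings were 266 and 170 of 10904, and 49 of 9736. For diet in sham lungs 2 were called with array weights or 2-group fits, and 1 with the authors' values, the stricter detection limit or median scaling. In the same order, all-gene calls were 471, 164 and 369 of 12746, 250 of 11582 and 212 of 12746. Leaving out an array gave 1 to 4 calls for injection in liver on CD, 2 to 5 on HFD, 3 to 5 in lung on CD, and 0 to 1 for diet in 4T1 livers and in sham lungs. All-gene calls were not kept for these fits. With all arrays, and in the same order, 43.3%, 48.8%, 52.8%, 0.303% and 1.67% of all genes were called. Leaving out an array also turned uncalled signs for Ghr (-0.0085 to 0.10), Igf1 (-0.20 to 0.0047) and Igfals (-0.13 to 0.042) in liver on CD, and Igfbp2 in liver on HFD (-0.11 to 0.044). In lung it did so for Igf1 (-0.13 to 0.064) and Igfbp2 (-0.12 to 0.076) on CD, and Cish (-0.081 to 0.048) and Igfbp2 (-0.11 to 0.16) on HFD. The causes were not tested.

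Within a tissue, same-numbered arrays of different groups did not deviate together in every pair (correlations -0.18 to 0.29), so the numbers were not taken to pair them. Between lung and liver of the same group the correlations of same-numbered arrays were -0.021 to 0.069. Those of arrays with different numbers were -0.074 to 0.039. In sham HFD and 4T1 CD, every same-numbered pair lay above every other pair. This did not hold in sham CD or 4T1 HFD. Whether same-numbered lung and liver arrays came from the same mouse is not stated. Taking them as a random block moved none of the 16 tested values in the tissue comparisons across the threshold. With the replicate number as a block, 58 of the 58 results called under at least 1 setting kept direction and side of the threshold. All-gene calls for the liver interaction became 36, against 103.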
